A study of Mus musculus with 14 samples.

Results

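The mitochondrial ribosomal protein genes were followed in mouse tumours of the Lewis lung carcinoma line LLC1 after treatment with an inhibitor of MYC, an inhibitor of class IIa histone deacetylases, or both. Members were the genes whose symbol starts with Mrpl or Mrps and goes on with a digit, with 1 pseudogene left out, which gave 78 of the 21152 genes in the table. By symbol, 49 belong to the large subunit (Mrpl) and 29 to the small subunit (Mrps). All 78 passed the filter on low values used for the tests, and none lay at the lowest value of the table in any of the 14 libraries.

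All mice bore LLC1 tumours and were treated for 16 days. DMSO served as the vehicle in 4 libraries, 4 more came from MYCi975, 3 from TMP195 and 3 from both compounds together, called the combination or Combo. MYCi975 is a small molecule that targets the MYC protein, and TMP195 binds the catalytic pocket of class IIa histone deacetylases. Each was given at 50 mg/kg as a single agent, while no dose is stated for either one inside the combination. The labels name the tumour material both as a bulk suspension and as an enriched tumour population, and nothing in them ties a library to its own animal, so the tests measure the spread between these libraries.

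The mitochondrial ribosome sits in the mitochondrial matrix and translates the few messenger RNAs that mitochondrial DNA encodes, all of them for subunits of the respiratory chain and the ATP synthase. Its RNA parts come from mitochondrial DNA, whereas every one of its proteins is encoded in the nucleus, made on cytosolic ribosomes and imported. Some of these proteins descend from bacterial ribosomal proteins, and others have no bacterial counterpart; MYC is known to bind near many nuclear genes of ribosome and mitochondrial biogenesis.

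Values are on the log2 scale that the authors deposited, with 4.047 as the lowest value in every library. Between 880 (Vehicle 1) and 2954 (MYCi975 2) genes per library lay at that value, with Vehicle 4 second highest at 2744, and the read depth is unknown. The scale is not corrected for gene length, so levels are compared between libraries and not between genes. Of the epithelial markers, Krt8 lay at 7.86 to 8.65 and Krt18 at 7.84 to 8.88, while Epcam reached only 5.30 and Krt19 only 5.48. Cdh1, the remaining marker of that list, passed the filter on low values, as did Krt8 and Krt18. Of the lung lineage markers, Napsa lay at 5.08 to 6.61, and Nkx2-1, Sftpc, Sftpb and Scgb1a1 were not among the genes matched to a symbol. The leukocyte marker Ptprc lay at 9.65 to 12.07, so leukocyte RNA was measured in every library. In such bulk material, fewer cells of a type and less RNA per cell cannot be told apart.

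Promoter sequence from RefSeq (GRCm38.p6) shows what many of these genes share beyond their names. The 150 bases before the RefSeq start of 4 members are printed 5′ to 3′ on the gene's own strand. Mrps16 and Mrpl35 are shown because their expression differed most from vehicle after MYCi975 and after the combination, respectively. Mrpl34 and Mrps18a are shown because they carry CCGGAAG, a core bound by ETS factors such as GABPA, which is in capitals. Mrps16 has 2 RefSeq starts, and the stretch before the outer one is given (chr14:20393635-20393784, minus strand). The stretches of Mrps16 and Mrpl35 hold none of the 4 motifs searched, although each gene has 1 elsewhere in its windows. Mrpl35 is at chr6:71823785-71823934 on the minus strand. Mrpl34 is at chr8:71464776-71464925 on the plus strand and Mrps18a at chr17:46110854-46111003 on the plus strand.
Mrps16: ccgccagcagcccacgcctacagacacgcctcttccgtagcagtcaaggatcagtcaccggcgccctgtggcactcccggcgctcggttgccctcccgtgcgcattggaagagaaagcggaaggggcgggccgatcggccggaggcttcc
Mrpl35: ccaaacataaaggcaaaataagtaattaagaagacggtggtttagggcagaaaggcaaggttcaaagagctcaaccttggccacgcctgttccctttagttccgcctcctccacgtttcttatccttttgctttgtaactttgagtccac
Mrpl34: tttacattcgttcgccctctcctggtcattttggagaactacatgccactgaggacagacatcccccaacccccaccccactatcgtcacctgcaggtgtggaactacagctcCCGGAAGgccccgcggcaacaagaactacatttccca
Mrps18a: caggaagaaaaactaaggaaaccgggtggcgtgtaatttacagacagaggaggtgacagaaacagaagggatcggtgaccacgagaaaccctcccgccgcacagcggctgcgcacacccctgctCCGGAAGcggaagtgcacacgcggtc

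A RefSeq window from 250 bases before to 50 bases after the start was found for 69 members and searched on both strands for 4 motifs. CCGGAAG was present in 26 members (37.7%), against 9.93% of the 27025 genes with a window and 20.8% of the 9565 tested genes with one. AAGATGGC, the motif of YY1, was present in 12 members (17.4%), against 3.19% and 5.41%. The motif of NRF1, a regulator of nuclear genes for mitochondria (GCGCA and GCGC with 1 base of any kind between them), was present in 13 members (18.8%), against 5.19% and 11.6%. CACGTG, the E-box that MYC binds together with MAX, was present in 5 members (7.25%), against 8.09% and 11.6%. Those 5 were Mrpl2, Mrpl20, Mrpl36, Mrpl37 and Mrps18c. CCGGAAG ends in the letters with which AAGATGGC begins, so their matches can overlap. At least 1 of the 4 motifs was found in 45 of the 69 members (65.2%), against 22.5% of all genes with a window. This share was not computed for the tested genes, which held each single motif more often than all genes did. A match says only that these letters are in the window.

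Many members also share their start region with a neighbour. In the GENCODE vM21 basic annotation, 18 of the 78 members (23.1%) start within 1000 bases of a protein-coding gene that runs away from them on the other strand. Pairs whose start regions overlap were not counted. Mrps11 and Mrpl46, which overlap on opposite strands, are not among the 18. The share with such a neighbour was 6.79% over 21951 protein-coding genes, expressed or not, and was not computed for the tested genes. Pairs of this kind included Mrps12 with Sars2, the mitochondrial seryl-tRNA synthetase, and Mrpl57 with Ska3, a component of the spindle and kinetochore complex. In GENCODE vM21, 26 members overlap another protein-coding gene, 4 of them on the same strand (Mrpl53, Mrps6, Mrps24 and Mrps34). The libraries were stranded per the labels' protocols, but no source used here states how reads of overlapping genes were assigned, so values of these 26 members carry that uncertainty.

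The group means of the members as a set lay close together, and the differences between these means were not tested. With every gene set relative to its own 14-library mean, the large subunit mean was 0.04 ± 0.10 with vehicle (SD, n = 4), -0.01 ± 0.11 with MYCi975 (n = 4), -0.04 ± 0.07 with TMP195 (n = 3) and -0.00 ± 0.10 with the combination (n = 3). The small subunit mean was 0.05 ± 0.09, 0.00 ± 0.05, -0.05 ± 0.08 and -0.01 ± 0.03 in the same order. Each pair of groups overlapped in both subunits. The widest distance between group means was -0.10, from vehicle to TMP195 in the small subunit. The SD between single libraries of the same group was 0.07, which is not the error of a difference between group means. With TMP195, 54 of all 78 members were lower than with vehicle and 24 were higher.

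**Figure D1:**
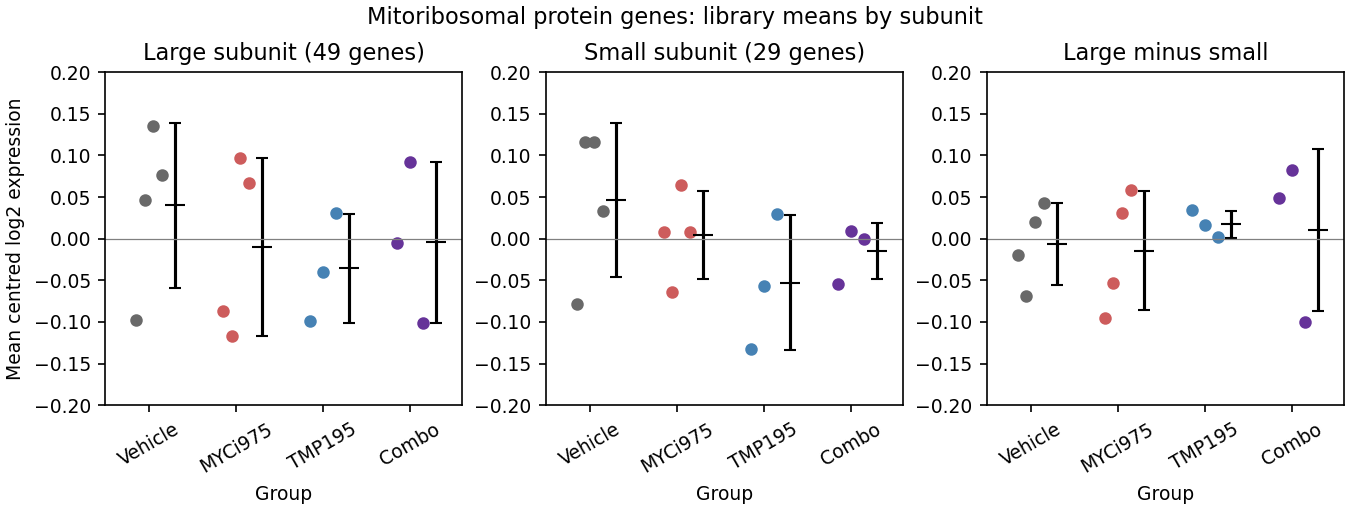
Mean log2 expression of the large subunit genes (left), the small subunit genes (middle) and their difference (right) in each library, with every gene set relative to its own 14-library mean; points are libraries, bars give the group mean and SD. The libraries of all 4 groups share the range from -0.13 to 0.14.

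The subunits varied together from library to library. Vehicle 3 was the highest library for both subunits (0.14 for the large and 0.12 for the small), and Vehicle 1 was low for both (-0.10 and -0.08). Large minus small ranged from -0.10 in Combo 3 to 0.08 in Combo 2, so its extremes both lay within the combination group. Relative to vehicle, large minus small was -0.01 after MYCi975, 0.02 after TMP195 and 0.02 after both compounds, against an SD between libraries of the same group of 0.06. Whether either subunit changed apart from the other was not tested.

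Counts of members above their own 14-library mean showed the same spread between libraries of one group. In vehicle the counts were 23, 59, 60 and 46 of 78, and with MYCi975 they were 30, 27, 53 and 47. With TMP195 they were 20, 39 and 42, and with the combination 35, 49 and 33. The extremes of vehicle nearly spanned those of the other groups, and only TMP195 1 lay below Vehicle 1.

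**Figure D2:**
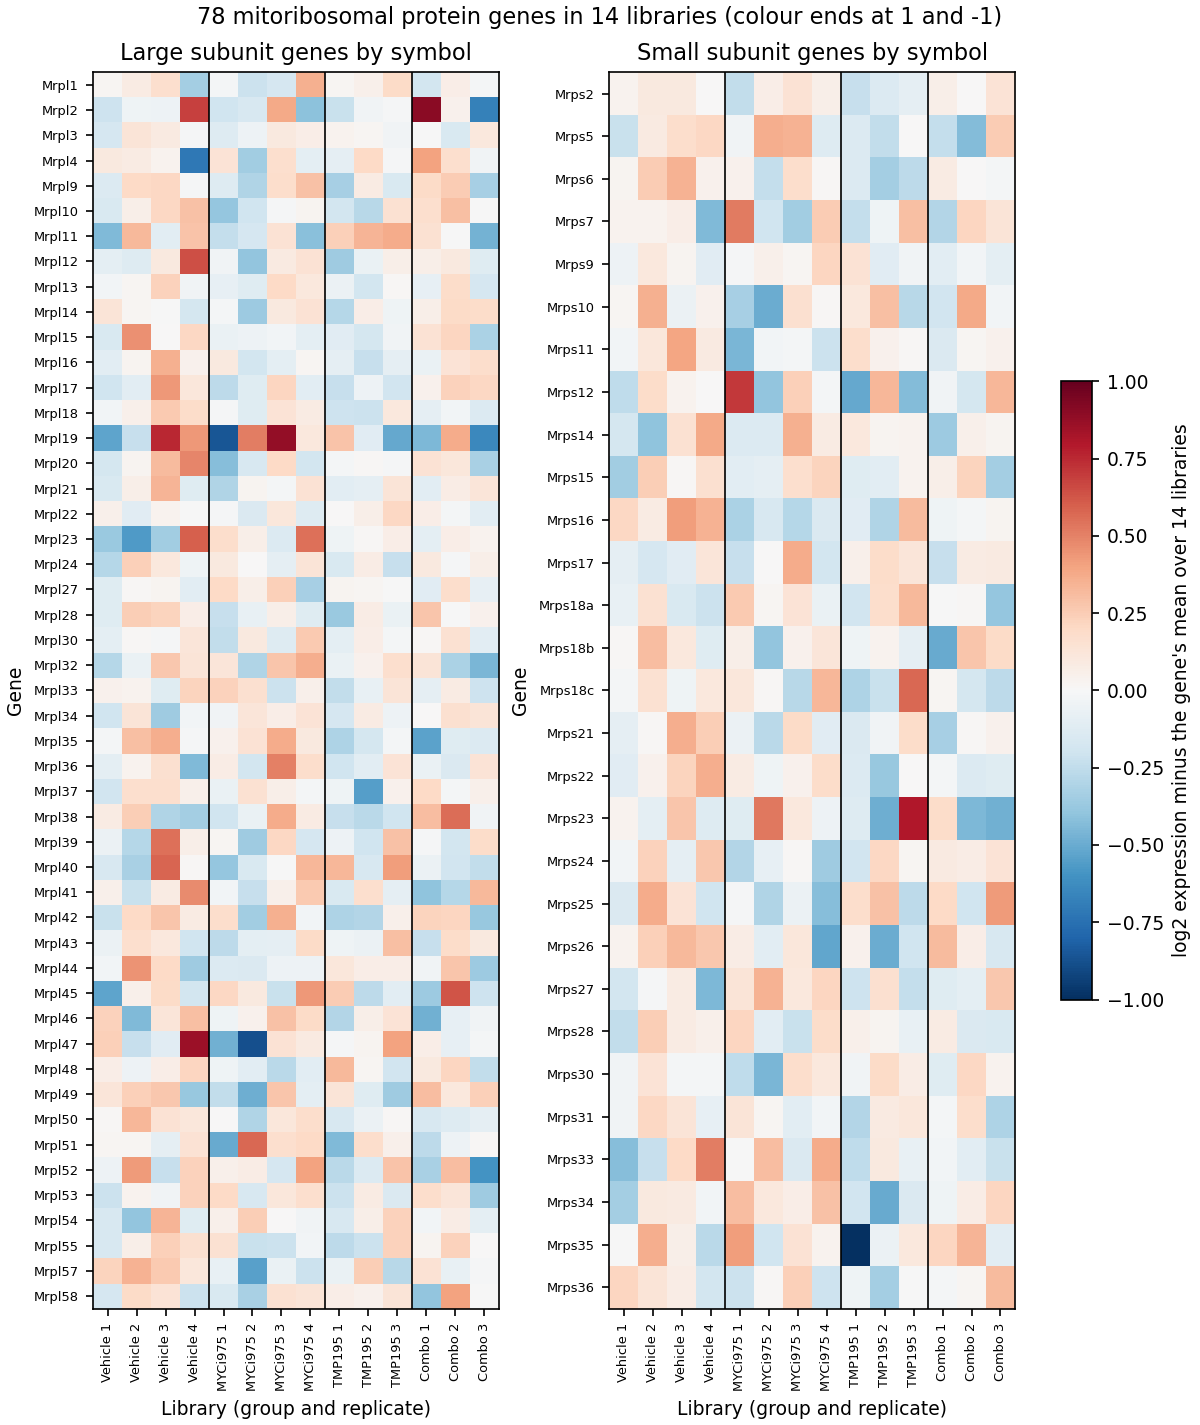
Log2 expression of each of the 78 members (rows) in the 14 libraries (columns), minus the gene's mean over all libraries; red is higher and blue lower, colour ends at 1 and -1, and 1 value lies beyond (Mrps35 in TMP195 1, at -1.04). Whole columns differ in shade within a group, as in Vehicle 1 and Vehicle 3, and no group forms a block of one colour.

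MYCi975 against vehicle asked whether inhibition of MYC alone went with a change of these genes. Of the large subunit genes, 32 of 49 were lower and 17 higher, with a median log2 difference of -0.04, and of the small subunit genes, 16 of 29 were lower, with a median of -0.02. The median over all 13711 tested genes was 0.01. No member passed an adjusted p of 0.05 in limma, where 0% of all tested genes did. At an unadjusted p under 0.05 there were 4 members, 1 higher and 3 lower, where 1.85% of all tested genes were higher, 1.49% lower and 3.33% either. The count was 2 without MYCi975 1 and 8 without MYCi975 3. The large subunit median ran from -0.10 without MYCi975 4 to -0.00 without MYCi975 1, and the small subunit median from -0.06 without Vehicle 1 to 0.00 without Vehicle 2.

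Mrps16, the counterpart of the bacterial assembly protein S16 and a gene mutated in an inherited defect of mitochondrial translation, was at 6.65, 6.52, 6.86 and 6.79 with vehicle and at 6.12, 6.28, 6.15 and 6.29 with MYCi975. All 4 MYCi975 libraries lay below all 4 vehicle libraries. The difference was -0.49 (95% interval -0.80 to -0.19), with an unadjusted p of 0.0038 and an adjusted p of 0.999 in limma. With TMP195, Mrps16 was at 6.33, 6.14 and 6.76, a range that reached into that of vehicle, and with the combination it was at 6.40, 6.42 and 6.47, below every vehicle library and above every MYCi975 library.

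Mrpl57, a large subunit protein with no bacterial counterpart, was at 6.49, 6.62, 6.53 and 6.38 with vehicle and at 6.19, 5.72, 6.20 and 6.05 with MYCi975. These groups did not overlap, and MYCi975 2 was the lowest of all libraries. The difference was -0.46 (95% interval -0.78 to -0.14, adjusted p = 0.999 in limma), and -0.36 without MYCi975 2. That library also had the highest Ptprc level (12.07) and the highest neutrophil marker mean (1.51 above the 14-library mean over 5 markers), and the part of these cells in the result was not tested.

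Mrps27, a small subunit protein of the pentatricopeptide repeat family, which binds RNA, was at 6.30, 6.47, 6.56 and 6.03 with vehicle. With MYCi975 it was at 6.61, 6.83, 6.59 and 6.70, above every vehicle library. The difference was 0.34 (95% interval 0.01 to 0.67, adjusted p = 0.999 in limma). TMP195 (6.27, 6.65 and 6.25) and the combination (6.36, 6.38 and 6.76) overlapped with both groups. Mrps27 was the 1 member whose MYCi975 libraries all lay above vehicle, where 1.03% of all tested genes did so. Mrps16 and Mrpl57 were the 2 whose MYCi975 libraries all lay below, where 0.707% of all tested genes did so.

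Mrps11, the counterpart of bacterial S11 on the platform of the small subunit, was at 5.70, 5.85, 6.13 and 5.82 with vehicle and 5.27, 5.71, 5.71 and 5.52 with MYCi975. The ranges met at their edges, and the difference was -0.32 (95% interval -0.62 to -0.02). Mrpl23, which lines the end of the exit tunnel, had a difference of 0.33 that moved between 0.20 and 0.59 as vehicle libraries were left out, since Vehicle 4 (6.45) stood apart from 5.48, 5.29 and 5.51. Mrpl47, another tunnel-end protein, had the second lowest difference (-0.47), with vehicle at 6.55, 6.08, 6.20 and 7.17 and MYCi975 at 5.83, 5.43, 6.46 and 6.40, which overlapped. Without Vehicle 4 it was -0.25.

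TMP195 against vehicle asked the same of class IIa histone deacetylase inhibition. Of the large subunit genes, 34 of 49 were lower, with a median of -0.10, and of the small subunit genes, 20 of 29 were lower, with a median of -0.08, beside a median of 0.00 over all tested genes. The large subunit median was -0.04 without TMP195 1 and the small subunit median -0.04 without Vehicle 2. No member passed the adjusted threshold in limma, where 0% of all tested genes did. Unadjusted p was under 0.05 for 4 members, all lower, where 1.47% of all tested genes were higher, 1.31% lower and 2.78% either. The count was 1 without Vehicle 2 or Vehicle 3, and 2 without MYCi975 1, MYCi975 4, TMP195 1 or TMP195 2.

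Mrps6, the counterpart of bacterial S6 on the platform, was at 6.99, 7.21, 7.31 and 7.00 with vehicle and at 6.83, 6.62 and 6.70 with TMP195, with no overlap. The difference was -0.41 (95% interval -0.71 to -0.11), with an unadjusted p of 0.0098 and an adjusted p of 1 in limma. With MYCi975 it was at 7.01, 6.73, 7.14 and 6.97, and with the combination at 7.05, 6.97 and 6.94. The combination libraries therefore all lay above the TMP195 libraries. Mrps6 overlaps Slc5a3, a transporter of myo-inositol, on the same strand. Slc5a3 was at 11.05 ± 0.22 with vehicle (SD, n = 4), 10.98 ± 0.30 with TMP195 (n = 3) and 11.26 ± 0.27 with the combination (n = 3).

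Mrps26, a small subunit protein with no bacterial counterpart, was at 6.19, 6.39, 6.48 and 6.43 with vehicle and at 6.20, 5.65 and 5.95 with TMP195. TMP195 1 lay just above the lowest vehicle library, and the difference was -0.44 (95% interval -0.84 to -0.04, adjusted p = 1 in limma). Mrps22, likewise without a bacterial counterpart and mutated in a human defect of mitochondrial translation, was at 7.49, 7.65, 7.83 and 7.97 with vehicle and at 7.47, 7.23 and 7.61 with TMP195, which overlapped, with a difference of -0.30, or -0.20 without TMP195 2. Mrpl35 was the remaining member of the 4, with a difference of -0.33 and its values given with the combination.

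Mrps6, Mrps2 and Mrpl50 were the 3 members whose TMP195 libraries all lay below vehicle, where 1.87% of all tested genes did so. No member had TMP195 libraries all above vehicle, where 2.4% of all tested genes did. Mrps2, the counterpart of bacterial S2, was among the members with the smallest spread, at 7.09, 7.15, 7.15 and 7.06 with vehicle and 6.82, 6.92 and 6.97 with TMP195, a difference of -0.21. The highest difference was that of Mrpl11, from the base of the stalk, at 5.65, 6.41, 5.98 and 6.37 with vehicle and 6.33, 6.43 and 6.46 with TMP195, which overlapped (difference 0.30). Without Vehicle 1 that difference was 0.15. By unadjusted p in limma, Mrps17, the counterpart of bacterial S17, and Mrps18a came next among the higher members, each with a difference of 0.18. The difference of Mrps18a was 0.07 without TMP195 3 and 0.32 without TMP195 1.

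**Figure D3:**
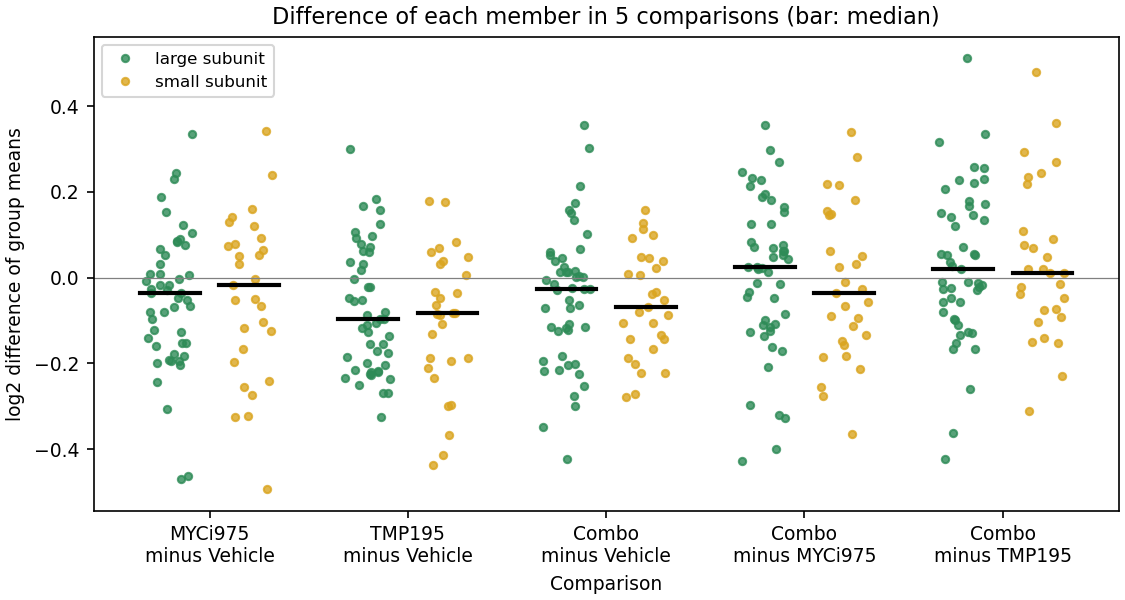
Log2 difference of group means for each member in 5 comparisons, with large subunit genes in green and small subunit genes in orange; each point is a gene and the black bars are medians. The medians lie between -0.10 and 0.02, and the points of the subunits overlap.

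The combination against vehicle asked whether both compounds together went with a change. Of the large subunit genes, 28 of 49 were lower, with a median of -0.03, and of the small subunit genes, 18 of 29 were lower, with a median of -0.07. The median over all tested genes was -0.00. No member passed the adjusted threshold in limma, where 0% of all tested genes did. Unadjusted p was under 0.05 for 1 member, Mrpl35, which was lower, where 2.08% of all tested genes were higher, 1.35% lower and 3.43% either. The count was 0 without Combo 1 and 4 without Combo 3. The large subunit median ran from -0.09 without Combo 2 to 0.03 without Combo 3, and the small subunit median from -0.12 without Combo 2 to -0.01 without Vehicle 2.

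Mrpl35, the counterpart of bacterial L35, was at 8.20, 8.52, 8.58 and 8.21 with vehicle and at 8.26, 8.36, 8.59 and 8.32 with MYCi975. With TMP195 it was at 7.91, 8.04 and 8.20, and with the combination at 7.68, 8.10 and 8.08. The combination lay below every vehicle and MYCi975 library, Combo 1 was the lowest of all, and the combination overlapped with TMP195. The combination differed from vehicle by -0.42 (95% interval -0.74 to -0.11, adjusted p = 0.992 in limma). It differed from MYCi975 by -0.43 (95% interval -0.74 to -0.11, adjusted p = 0.611). Without Combo 1 these differences were -0.29 and -0.29.

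Mrpl50, a large subunit protein with no bacterial counterpart, was at 7.43, 7.75, 7.56 and 7.53 with vehicle and at 7.26, 7.29 and 7.32 with the combination, a difference of -0.28 with no overlap. Mrpl35, Mrpl50 and Mrps16 were the 3 members whose combination libraries all lay below vehicle, where 3.27% of all tested genes did so. None lay wholly above, where 2.8% of all tested genes did. The highest difference from vehicle was that of Mrpl38, a protein of the central protuberance, at 6.45, 6.61, 6.07 and 6.03 with vehicle and 6.67, 6.93 and 6.33 with the combination. These groups overlapped, and the difference was 0.36, or 0.21 without Combo 2. Mrpl4, near the catalytic core (0.30), and Mrpl34, the counterpart of bacterial L34 (0.21), followed, and neither had an unadjusted p under 0.05. The difference of Mrpl4 was 0.11 without Vehicle 4 and that of Mrpl34 0.13 without Vehicle 3.

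**Figure D4:**
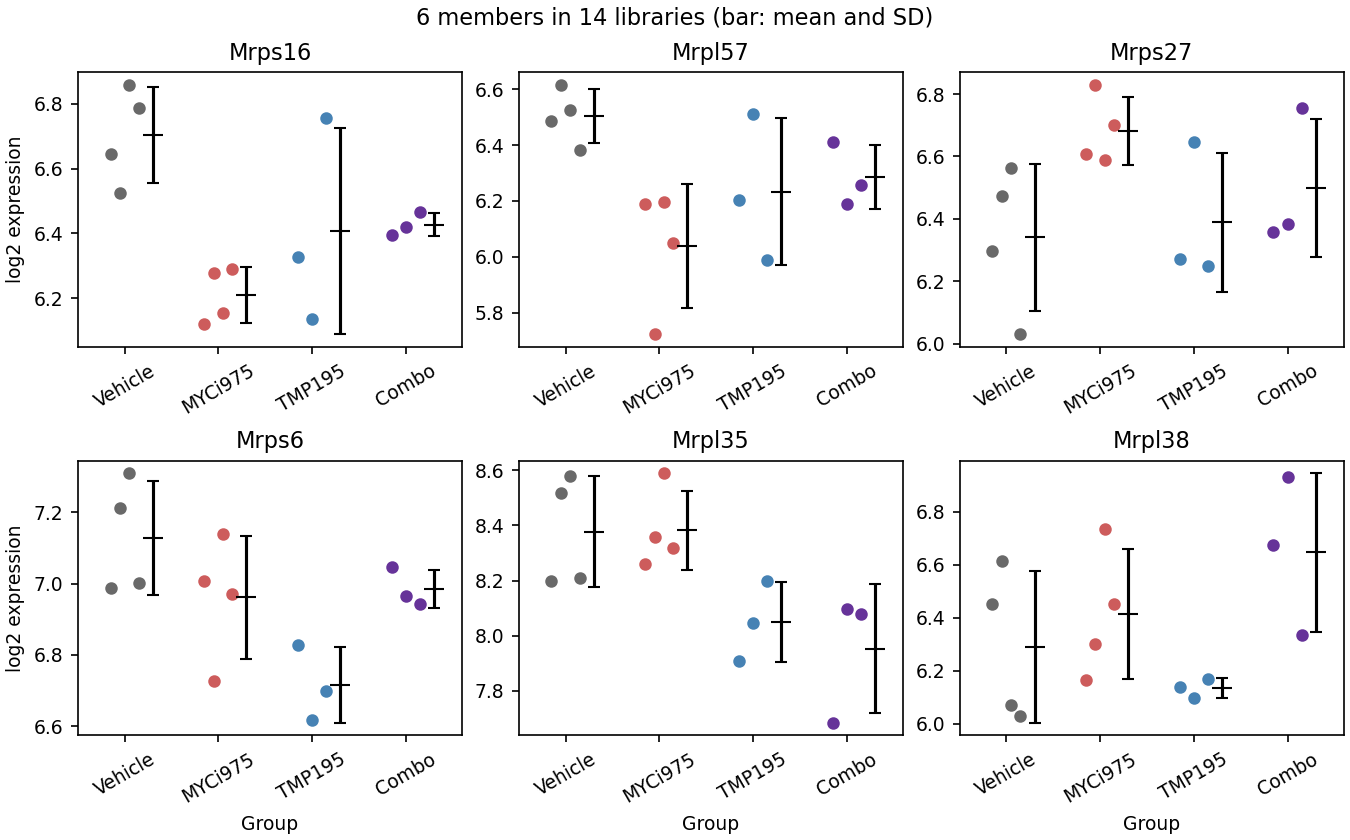
Log2 expression of 6 members in each library by group, with the group mean and SD as bars; the vertical axes differ between panels and do not start at 0. Mrps16 and Mrpl57 of MYCi975 lie below vehicle, Mrps27 above, Mrps6 of TMP195 and Mrpl35 of the combination below, and Mrpl38 of the combination above TMP195.

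The combination was next set against each single agent. Against MYCi975, the large subunit median was 0.02 and the small subunit median -0.04, beside 0.00 over all tested genes. Against TMP195 the medians were 0.02 and 0.01, beside 0.01. Each of these 4 medians reached 0 or the other side of it when 1 library was left out, as for the large subunit without Combo 2, -0.03 against MYCi975 and -0.02 against TMP195. No member passed the adjusted threshold of limma in either comparison, where 0% of all tested genes did. Against MYCi975, 1 member had an unadjusted p under 0.05 (Mrpl35, lower), where 3.14% of all tested genes were higher, 5.03% lower and 8.17% either; without MYCi975 3 or Combo 2 there were 3. Against TMP195 there were 2 (Mrpl38 and Mrps34, both higher), where 1.66% of all tested genes were higher, 2.74% lower and 4.4% either; without TMP195 2 or Combo 2 there were 0.

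Mrpl38 was at 6.14, 6.10 and 6.17 with TMP195, below all 3 combination libraries, and the difference was 0.51 (95% interval 0.08 to 0.95, adjusted p = 0.998 in limma). Mrps34, a small subunit protein with no bacterial counterpart, was at 5.57, 5.26 and 5.62 with TMP195 and 5.72, 5.83 and 5.98 with the combination, also without overlap (difference 0.36, 95% interval 0.01 to 0.72). In vehicle, Mrps34 was at 5.42, 5.86, 5.85 and 5.73, between and across those groups. Besides these, Mrpl16, Mrpl17, Mrps2 and Mrps6 had all combination libraries above all TMP195 libraries, which made 6 members where 5.48% of all tested genes did so. Mrpl11 had them all below (difference -0.42, and -0.24 without Combo 3), where 6.36% of all tested genes did. Mrpl40, of the central protuberance, followed at -0.36 with overlap.

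Against MYCi975, Mrps16 and Mrps24 had all combination libraries higher, where 3.53% of all tested genes did, and Mrpl35 and Mrps9 had them all lower, where 3.97% did. Mrps24, the counterpart of bacterial S3 at the messenger RNA entry, was at 6.48, 6.69, 6.78 and 6.41 with MYCi975 and 6.86, 6.84 and 6.91 with the combination. Its difference was 0.28, beside 0.30 for Mrpl10, and vehicle (6.74, 7.00, 6.68 and 7.03) overlapped with the combination. Mrpl32, a member that a mitochondrial protease matures after import, had a difference of -0.33 from MYCi975, with an unadjusted p over 0.05. It was -0.50 without Combo 1 and -0.21 without Combo 3.

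The interaction asked whether the difference made by MYCi975 was another with TMP195 present than without it. The median was 0.06 for the large and 0.10 for the small subunit, beside 0.00 over all tested genes. No member passed the adjusted threshold in limma, where 0% of all tested genes did. Unadjusted p was under 0.05 for 5 members, all higher, where 1.74% of all tested genes were higher, 3.05% lower and 4.78% either. They were Mrps26 (0.62, 95% interval 0.06 to 1.18), Mrps16 (0.51), Mrpl57 (0.52), Mrpl10 (0.50) and Mrps6 (0.44), each with an adjusted p of 0.911. For all 5, both single agents had a lower mean than vehicle, and the mean of the combination lay above both single-agent means. Selection for a high interaction favours this order, so it is not a separate result. In the opposite direction the smallest p-values were those of Mrps18a (-0.39) and Mrpl32 (-0.36), which were -0.26 and -0.24 without Combo 3. Without Vehicle 3, 0 members had an unadjusted p under 0.05, and the large subunit median was 0.02. The small subunit median was 0.02 without MYCi975 2 and 0.16 without Vehicle 1. In the same comparison all 5 neutrophil markers were lower (median -1.27, 4 with an unadjusted p under 0.05), as were all 4 leukocyte markers (median -0.95), and their part in the result was not tested.

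By place in the ribosome, the stalk and its base, which recruit translation factors, hold Mrpl12, Mrpl10 and Mrpl11. Mrpl12 was at 7.28 ± 0.36 with vehicle (SD, n = 4), 7.11 ± 0.24 with MYCi975 (n = 4), 7.03 ± 0.21 with TMP195 (n = 3) and 7.17 ± 0.12 with the combination (n = 3), and Vehicle 4 (7.80) was its highest library. Without Vehicle 4 its MYCi975 difference was -0.01. Mrpl10 was at 7.08, 7.29, 7.44 and 7.53 with vehicle, 6.85, 7.03, 7.22 and 7.26 with MYCi975, and 7.41, 7.53 and 7.23 with the combination. All 3 stalk genes had a lower mean with MYCi975 than with vehicle (-0.18 to -0.24), and their ranges overlapped.

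The exit tunnel, through which the new protein leaves, was represented by 6 members, of which 3 were higher and 3 lower with MYCi975 and likewise with TMP195. The central protuberance, a ridge of the large subunit that faces the head of the small one, had 2 of 5 higher and 3 lower in each comparison with vehicle. Mrpl58, a peptide release factor relative that frees stalled ribosomes and is also a structural protein of the protuberance, was at 6.76 ± 0.21 in vehicle libraries, 6.73 ± 0.23 after MYCi975, 6.86 ± 0.04 after TMP195 and 6.78 ± 0.40 after both. Decoding and messenger RNA channel proteins (Mrps5, Mrps12 and Mrps24) had differences of -0.08 to -0.19 with TMP195, and none had an unadjusted p under 0.05.

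Mrps18a, Mrps18b and Mrps18c are 3 relatives of 1 bacterial protein that occupy different sites, Mrps18a in the large subunit. Mrps18a was at 6.64 ± 0.16 in vehicle libraries, 6.80 ± 0.14 after MYCi975, 6.82 ± 0.27 after TMP195 and 6.59 ± 0.23 after both. Mrps18b differed from vehicle by -0.12, -0.11 and -0.09 in the same order of treatments, and Mrps18c by -0.00, -0.04 and -0.19. None of the 9 differences from vehicle had an unadjusted p under 0.05.

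Some symbols do not match the protein's place. Mrps30, also a large subunit protein, was at 8.35 ± 0.08 in vehicle libraries, 8.23 ± 0.30 after MYCi975, 8.41 ± 0.11 after TMP195 and 8.37 ± 0.16 after both. Mrps36, now known as an adaptor of the 2-oxoglutarate dehydrogenase complex, was at 6.12 ± 0.17, 6.02 ± 0.21, 5.94 ± 0.18 and 6.17 ± 0.19. With Mrps18a and Mrps30 moved to the large subunit and Mrps36 left out (51 and 26 genes), the medians with TMP195 were -0.10 and -0.08, as with the symbols.

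Large subunit members were also divided by descent. With TMP195, the 30 bacterial-type ones had a median of -0.11 and the 19 mitochondria-specific ones -0.10. With MYCi975 the medians were -0.03 and -0.05. Mrpl44, of the ribonuclease III family, Mrpl42 and Mrpl41 differed from vehicle by -0.16, -0.05 and -0.08 with MYCi975 and by 0.02, -0.27 and -0.12 with TMP195. Mrps12, at the decoding site, differed by 0.14 and -0.19.

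Members were also divided by the motifs in their promoter windows. With MYCi975, the 5 members with the MYC E-box had a median of -0.02 and the 64 without it -0.05. The 26 with CCGGAAG had -0.03 against -0.08 without, and the 12 with AAGATGGC had 0.05 against -0.07. The 13 with the NRF1 motif had -0.13 and the 56 without it -0.05. With TMP195 the 5 E-box members had -0.17 against -0.08, and with the combination -0.01 against -0.04. Across the 6 comparisons the widest distance between medians was that of the E-box in the interaction, 0.28 for the 5 with it and 0.06 for the 64 without. From the lower to the upper quartile, the members spanned -0.16 to 0.07 with MYCi975.

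The median residual SD of the members, their spread between libraries of a group, was 0.20, against 0.24 over all tested genes. The smallest were those of Mrps9 and Mrpl22 (both 0.10) and Mrps2 (0.11). Mrpl22, a tunnel protein, stayed between 5.36 and 5.71 in all 14 libraries. The largest were those of Mrpl19 (0.60), Mrpl2 (0.46) and Mrpl47 (0.39). Mrpl19 was at 6.76, 7.05, 8.04 and 7.72 with vehicle and 6.43, 7.79, 8.16 and 7.39 with MYCi975, so libraries of one group were far apart and the groups overlapped.

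The 95% intervals, taken for each gene alone, show how closely the differences were estimated. Their units are those of the variance-stabilised scale and were not converted to fold changes. With MYCi975 the 95% interval of the difference from vehicle lay within 1 log2 unit on either side of 0 for all 78 members and within 0.5 for 46. With TMP195 these were 77 and 35 members, and with the combination 77 and 43, where Mrpl19 was the exception in both. The median interval half-width was 0.33 with MYCi975 and 0.36 with the other 2 treatments.

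The ribosome's RNA parts, mt-Rnr1 and mt-Rnr2, varied far more between libraries than its protein genes. The small rRNA mt-Rnr1 was at 18.55 ± 0.78 with vehicle (SD, n = 4), 18.80 ± 0.49 with MYCi975 (n = 4), 18.75 ± 0.84 with TMP195 (n = 3) and 18.45 ± 0.79 with the combination (n = 3). The large rRNA mt-Rnr2 was at 22.15 ± 0.70, 22.35 ± 0.52, 22.10 ± 0.71 and 21.74 ± 0.65. All 13 messenger RNAs translated by this ribosome had a lower mean with the combination than with vehicle (median -0.49), none with an unadjusted p under 0.05, and their library means ran from -1.08 to 0.41 within the combination alone. No source used here states whether ribosomal RNA was removed before sequencing.

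**Figure D5:**
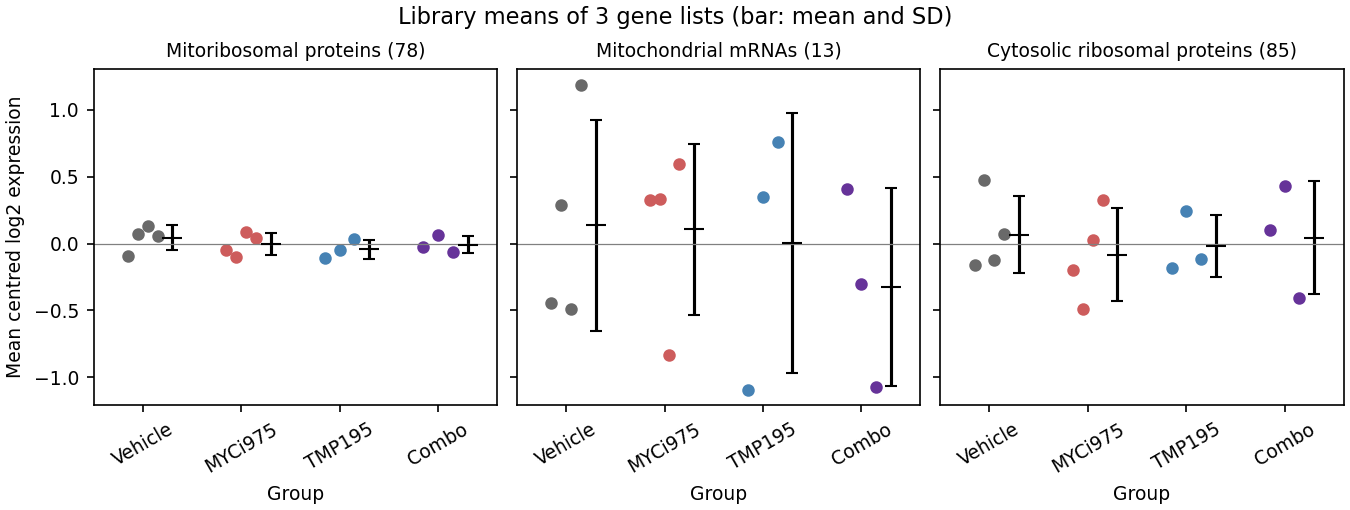
Mean log2 expression per library, each gene centred on its 14-library mean, for the 78 members (left), the 13 mitochondrial messenger RNAs (middle) and 85 cytosolic ribosomal protein genes (right); points are libraries, bars the group mean and SD, and all panels share an axis. The members stay within 0.13 of 0, the messenger RNAs reach from -1.10 to 1.19 and the cytosolic ribosomal proteins from -0.49 to 0.47.

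Cytosolic ribosomal protein genes, which build the ribosome that makes the members' proteins, had library means from -0.49 in MYCi975 2 to 0.47 in Vehicle 2. With MYCi975, 68 of 80 tested were lower, with a median of -0.16, and with TMP195 65 of 80 were lower, with a median of -0.07. With the combination 40 were lower and 40 higher. None passed the adjusted threshold in limma.

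Further genes of the pathway came from lists of known function. The 5 ribosomal proteins with other names had 4 lower with MYCi975, 4 lower with TMP195 and 3 lower with the combination. Among them Dap3, a GTP-binding protein of the small subunit head, was at 7.36 ± 0.08 with vehicle (n = 4), 7.20 ± 0.09 with TMP195 (n = 3) and 7.62 ± 0.02 with the combination (n = 3). Of 27 tested assembly and rRNA modification genes, 15 were lower after MYCi975, 20 after TMP195 and 14 after both compounds. The smallest unadjusted p with MYCi975 among those lower was that of Mtg1, a GTPase of large subunit assembly, at -0.46 (adjusted p = 0.999 in limma), or -0.29 without Vehicle 4. With TMP195 it was that of Fastkd2, an RNA-binding protein of mitochondrial RNA granules, at -0.33, and among those higher that of Mpv17l2, at 0.34, or 0.19 without TMP195 3.

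Of 15 translation factors, 9, 11 and 7 were lower in the same order, with Gfm1, the elongation factor that moves the ribosome along, at 0.28 with MYCi975. Of 20 mitochondrial aminoacyl-tRNA synthetase genes, 12 and 13 were lower with the single agents, whereas 18 were higher with the combination, with a median of 0.07 and none with an unadjusted p under 0.05. Ears2, for glutamate, had the smallest p of these (difference 0.26, and 0.16 without Combo 2). Of the 4 mitochondrial transcription genes, Tfam, which packages mitochondrial DNA, differed by -0.40 with the combination (adjusted p = 0.992 in limma), and Tfb2m, which opens the promoter, by -0.52 with TMP195 (adjusted p = 1). Vehicle 4 was the highest vehicle library for both, and without it these differences were -0.21 and -0.34. No gene of these lists passed the adjusted threshold in any of the 6 comparisons.

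Markers of other cells varied more than the members did. The leukocyte marker mean, over 4 genes, ran from -0.38 to 0.30 with vehicle, -0.31 to 1.16 with MYCi975, -0.18 to 0.75 with TMP195 and -0.83 to -0.35 with the combination, where it was lower than in vehicle for 4 of 4 genes. All 5 neutrophil markers had a higher mean than vehicle after MYCi975 (median 0.62) and after TMP195 (median 0.31), and a lower one after both compounds (median -0.34). MYCi975 2 had the highest neutrophil marker mean of all libraries, as given with Mrpl57. All 6 fibroblast markers had a higher mean than vehicle after both compounds (median 0.45). The skeletal muscle mean, over 6 genes, ran from -1.10 to 1.99 with vehicle, -0.48 to 1.42 with MYCi975, -1.08 to -0.43 with TMP195 and -1.21 to 0.12 with the combination. Ckm, Myh4, Tnnt3 and Mylpf were at the lowest value in at least 1 library. The part of these cells in the members' values was not tested.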

How the data were processed

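The deposited values are expression on a log2 scale that the authors made by variance stabilisation, per the file's name, in 1 table of 21152 genes and 14 libraries. The submitters' processing notes name Salmon and the build hg38, which is human although the gene IDs are mouse, so the build of the values is not settled. Counts could not be recovered and the depth is unknown. Of the IDs, 20264 (95.8%) matched a symbol. Genes with a mean over 1 log2 unit above the lowest value were tested (13711). limma 3.58.1 in R 4.3.3 fitted 1 mean per group over all 14 libraries, with 10 residual and 5.275 prior degrees of freedom, a trend with intensity, two-sided tests and Benjamini-Hochberg adjustment over all tested genes at 0.05. The code was tested on simulated data.

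The members and lists were chosen with earlier results of these data known. Members were named for their role (17), for the smallest p in each direction (3 per comparison with vehicle, 2 otherwise) and for the 3 largest and 3 smallest residual SDs; others named were chosen after their values were seen. Alternatives were no filter, a filter of 2 units, median centring, no trend, library weights, a replicate block, only the compared groups, subunits by structure and leaving out each library. Proteins of the Mrps18 genes were not compared here.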

Additional observations from a re-analysis of the deposited data

Results flagged for a closer look

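The 37 members named for their role, p-values or spread, with the large subunit mean, the small subunit mean and their difference, made 80 groups of 4 libraries. These were examined for 1 library apart from the other 3, and 3 stood out, where chance gives about 1 in 20 (4 of 80). Mrpl4, a large subunit protein near the catalytic core, was at 5.83 in Vehicle 4, whereas the other vehicle libraries lay between 6.58 and 6.64. Its difference between combination and vehicle was 0.30 with that library and 0.11 without it. Mrps18b was at 6.49 in MYCi975 2, whereas the other MYCi975 libraries lay between 6.93 and 7.01. Mrps30 was at 8.47 in Vehicle 2, whereas the other vehicle libraries lay between 8.30 and 8.32.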

How the results depend on the processing

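Groups of 3 or 4 libraries and an unknown depth limit these results. No member passed an adjusted p of 0.05 under any setting run. None of the differences named for their p-values changed direction, whereas 21 of the 51 differences from vehicle of the 17 members named for their role did so when some library was left out. Medians near 0 crossed it as libraries were left out (large subunit, combination against vehicle, from -0.09 to 0.03). Counts of members with an unadjusted p under 0.05 moved most, and the cause was not tested. Against TMP195 the combination had 2 such members, and 1 with no filter or with the filter of 2 units. TMP195 against vehicle had 4, 2 with no intensity trend and 7 with library weights. Library weights also gave 2 for the combination against vehicle (from 1), 2 for the combination against MYCi975 (from 1) and 3 for the interaction (from 5). With only the compared groups fitted, MYCi975 against vehicle had 2 (from 4). Leaving out each library in turn gave 2 to 8 for MYCi975 against vehicle (8 without MYCi975 3), 1 to 6 for TMP195 against vehicle (1 without Vehicle 2 or Vehicle 3), and 0 to 4 for the combination against vehicle (0 without Combo 1). It gave 1 to 3 for the combination against MYCi975, 0 to 3 against TMP195 (0 without TMP195 2 or Combo 2) and 0 to 6 for the interaction, whose small subunit median of 0.10 ran from 0.022 (without MYCi975 2) to 0.16.

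Same-numbered libraries showed no clear common deviation (19 pairs, correlations from -0.302 to 0.215, 6 of them over 0.1). Of the 14 libraries, 6 correlated best with their own number, and the count that chance would give was not computed. The numbers were not taken as a pairing. With a replicate block the counts were 2 for the combination against vehicle, 2 against MYCi975 and 1 against TMP195, and no call changed.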
